A study of Homo sapiens with 6 samples.

Results

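Genes of the cell death machinery, 7 in all, were sought among the probes of an array set. They were MCL1, BCL2L1, BAX, BBC3, PMAIP1, BIRC2 and TNFRSF10B. A probe was taken when the platform annotation gave it a single gene symbol and that symbol was one of the 7. This found 7 probes for 6 genes, out of 8987 genes with a probe of their own. BCL2L1, which encodes the survival protein BCL-XL, was named only by 1 probe that carries several gene symbols, so it has no value here. All 7 probes were measured on all 6 arrays, and BIRC2 had 2 of them.

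The arrays followed the human cell line GM00156 of the Coriell repository. In 5 of the 6 hybridisations, mRNA of cells given emetine at 100 µg/ml for 10 h, labelled with Cy3, was set against mRNA of untreated cells, labelled with Cy5. Emetine is an alkaloid that stops ribosomes on the mRNA. Actinomycin D, which blocks transcription, was then added at 5 µg/ml to both the treated and the untreated cells, and harvests followed 0 min, 10 min, 30 min, 1 h and 8 h later. On the remaining array, named self-self, emetine-treated mRNA of the 0 min harvest stood on both sides, and its label mentions no actinomycin D. Each harvest is 1 array with no replicate. The labels name neither a cell type nor separate cultures for the harvests, so every p-value below measures only the spread between these arrays.

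Apoptosis through mitochondria is governed by the BCL2 family. MCL1 and its relatives hold back BAX and BAK1, which perforate the outer mitochondrial membrane, and BH3-only proteins such as PUMA (gene BBC3) and NOXA (gene PMAIP1) bind the guardians and release that hold. A second route starts at death receptors such as TNFRSF10B, the receptor DR5 for the ligand TRAIL, and BIRC2 (cIAP1) is a ubiquitin ligase that steers receptor signals towards survival. MCL1 protein and mRNA are known to be short-lived, so MCL1 is often studied when translation or transcription is blocked.

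All values are log2 ratios between the channels of 1 array. The labels do not state which channel is the numerator, so values are called positive or negative and no direction of change is given. A ratio also cannot tell fewer cells of a type from less RNA per cell. Across the 5 harvest arrays the robust SD of all probes ran from 0.44 to 0.91 and the median from 0.05 to 0.15, against 0.12 and 0.01 on the self-self array. Harvest arrays correlated with each other across probes at Pearson's r from 0.66 to 0.89, and with the self-self array at 0.18 to 0.33, which is a description over probes. The labels of the 0 min array disagree, as its description puts treated RNA on both sides and its channel names do not. The 1 h array lacks large positive values, with a highest value of 2.99 against 5.94 to 7.14 on the other 4 harvest arrays. Of the cell type markers listed, 4 of 7 measured fibroblast genes were called negative and 1 positive by the test described below. For B lymphocytes the negative and positive counts were 0 and 1 of 4, for T and NK cells 0 and 1 of 4, and for epithelium 1 and 2 of 5. Their part in the results below was not tested, and ratios hold no level from which the cells could be named.

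Promoter windows of 4 of the 6 measured genes were taken from the RefSeq promoter table (GRCh38.p14). Each covers 250 bases before the gene's start and 50 after it. No window of MCL1 or TNFRSF10B was taken, so these positive genes are not set beside BAX. The 4 genes shown are the measured members for which a window was taken, and the sign of their values played no part in this. PMAIP1, BIRC2 and BBC3 were positive at every harvest and BAX was not. The sequences of both kinds can thus be set side by side. Capitals mark TGACGT or its reverse ACGTCA, the core of the cAMP response element, and CACGTG, the E-box. Letters were searched on both strands, and the motifs were chosen after the sequences had been read.

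PMAIP1 (chr18:59899746-59900045, plus strand): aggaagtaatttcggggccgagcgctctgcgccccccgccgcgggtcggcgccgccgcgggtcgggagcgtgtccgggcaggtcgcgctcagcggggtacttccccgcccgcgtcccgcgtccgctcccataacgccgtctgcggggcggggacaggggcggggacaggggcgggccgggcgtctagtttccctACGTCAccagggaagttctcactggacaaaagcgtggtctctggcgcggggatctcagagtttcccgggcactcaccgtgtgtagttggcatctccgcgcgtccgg
BIRC2 (chr11:102346964-102347263, plus strand): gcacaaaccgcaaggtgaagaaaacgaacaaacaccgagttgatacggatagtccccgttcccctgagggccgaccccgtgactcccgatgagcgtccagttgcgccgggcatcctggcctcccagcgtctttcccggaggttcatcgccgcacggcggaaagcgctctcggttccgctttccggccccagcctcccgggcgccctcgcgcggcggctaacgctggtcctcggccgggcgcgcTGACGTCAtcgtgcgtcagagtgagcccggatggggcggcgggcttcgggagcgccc
BBC3 (chr19:47232618-47232917, minus strand): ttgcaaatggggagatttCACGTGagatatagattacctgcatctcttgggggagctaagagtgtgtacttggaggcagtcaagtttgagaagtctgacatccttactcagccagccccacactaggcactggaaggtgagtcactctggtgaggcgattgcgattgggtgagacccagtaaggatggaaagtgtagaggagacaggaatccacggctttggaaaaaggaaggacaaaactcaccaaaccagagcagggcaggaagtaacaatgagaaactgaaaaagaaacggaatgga
BAX (chr19:48954625-48954924, plus strand): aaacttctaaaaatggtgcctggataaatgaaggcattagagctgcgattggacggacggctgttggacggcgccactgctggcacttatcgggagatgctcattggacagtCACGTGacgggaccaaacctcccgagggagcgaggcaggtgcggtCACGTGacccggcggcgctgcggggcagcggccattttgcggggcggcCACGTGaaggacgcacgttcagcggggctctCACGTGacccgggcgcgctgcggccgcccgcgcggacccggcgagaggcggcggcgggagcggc

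The PMAIP1 window holds 1 ACGTCA match, starting 56 bases before the gene's start, and 4 GC boxes (GGGCGG). The BIRC2 window holds the whole palindrome TGACGTCA, in which the core matches on both strands overlap, starting 7 bases before the start, and 1 GC box. The table holds another BIRC2 start with an overlapping window (chr11:102347124-102347423), not printed, in which the same palindrome lies 167 bases before the start beside 3 GC boxes. BBC3 has 1 CACGTG and 0 GC boxes, BAX has 4 CACGTG and 2 GC boxes, and in no window did the core and the E-box overlap. Over 35116 promoters of the same length, 7.98% hold the core, 1.85% the whole palindrome, 7.26% an E-box and 45.0% a GC box. TATAAA, found in 11.5% of them, is in none of these 4 windows. These matches describe letters, not sites in use.

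The mean over the harvests asks which of these transcripts differed between emetine-treated and untreated cells across the whole course. Treated mRNA always carried Cy3, so in this mean alone an effect of dye cannot be told apart from one of treatment. All 6 probes for MCL1, BBC3, TNFRSF10B, PMAIP1 and BIRC2 were past the threshold on the positive side, and the BAX probe was not past it. The threshold is an adjusted p of 0.05 in limma's test of the mean over 5 arrays, fitted to 13151 probes. Of all these probes 35.0% were called positive and 26.3% negative. The members' means ran from -0.27 for BAX to 2.97 for MCL1. The median over all probes was 0.12, and 0.02 after centring arrays on their medians.

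MCL1, the BCL2-family guardian, had log2 ratios of 2.57, 3.24, 3.08, 1.12 and 4.87 at 0, 10 and 30 min, 1 h and 8 h, against 0.17 on the self-self array. All 5 harvests lay above the self-self value, the 8 h array was the highest and the 1 h array the lowest. The mean was 2.97 (SE 0.38, 95% interval 2.10 to 3.85, n = 5 arrays, limma adjusted p = 0.000590), a difference of 7.86-fold between the channels. It was above that of 99.4% of probes. Without the 1 h array the mean was 3.44, without the 0 min array 3.08 and without the 8 h array 2.50.

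BAX, the effector that MCL1 restrains, did not stand apart from its self-self value. Its log2 ratios were -0.25, -0.38, 0.02, -0.30 and -0.41 at the 5 harvests, against -0.24 on the self-self array. The harvests thus lay on both sides of the self-self value, and on the self-self array only 1.87% of probes were lower than BAX. The mean was -0.27 (SE 0.12, 95% interval -0.54 to 0.01, limma adjusted p = 0.0823). With each array centred on its median the mean was -0.36 and past the threshold on the negative side (limma adjusted p = 0.0263), and the call also changed with arrays scaled to equal spread and with another variance model. When the self-self array entered the fit as the level to compare with, BAX stood at -0.03 (limma adjusted p = 0.964).

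BBC3, which encodes the BH3-only protein PUMA and is a target of p53, had log2 ratios of 2.31, 2.57, 3.38, 0.82 and 2.38, against -0.12 on the self-self array. It was highest at 30 min, where it stood above MCL1, and lowest at 1 h. Its mean was 2.29 (SE 0.31, 95% interval 1.58 to 3.001, limma adjusted p = 0.000666), or 4.90-fold in size. PMAIP1, which encodes NOXA, the BH3-only protein that binds MCL1 with preference, had 1.26, 1.33, 1.47, 0.68 and 1.47, against 0.01 on the self-self array. Outside the 1 h array its values lay within a narrow span, and its mean was 1.24 (SE 0.15, 95% interval 0.90 to 1.58, limma adjusted p = 0.000522). The probes of these 2 member genes lay above the central 99% of self-self values at all 5 harvests, as did 10.5% of all probes.

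TNFRSF10B, the death receptor, had log2 ratios of 2.08, 2.41, 2.27, 0.83 and 2.02, against 0.27 on the self-self array. The self-self value was above that of 96.6% of probes on that array, yet each harvest exceeded it. The mean was 1.92 (SE 0.22, 95% interval 1.42 to 2.43, limma adjusted p = 0.000499), and 1.65 relative to the self-self array. The probes of BIRC2, the ubiquitin ligase cIAP1, are annotated to 1 sequence record and so repeat a measurement. Probe 2300 gave 0.72, 1.61, 1.18, 0.71 and 1.53, against 0.04 on the self-self array, and probe 7689 gave 0.71, 1.45, 1.17, 0.78 and 1.30, against 0.08. On any harvest array they differed by at most 0.23. Their means were 1.15 (SE 0.16, limma adjusted p = 0.000826) and 1.08 (SE 0.14, limma adjusted p = 0.000650).

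**Figure D1:**
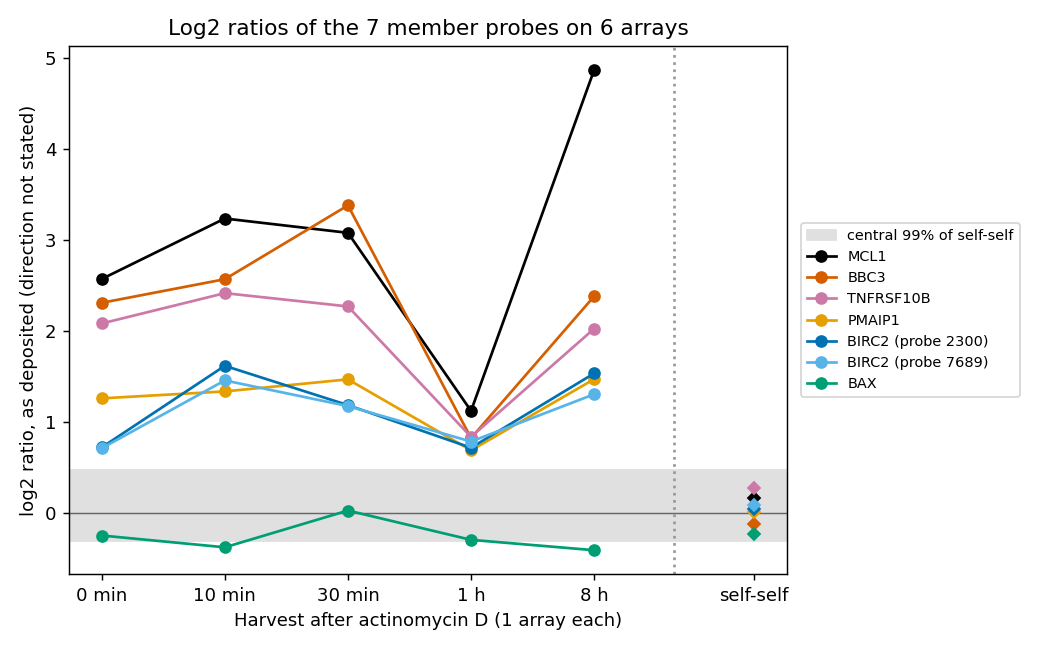
Log2 ratios (vertical axis, as deposited) of the 7 probes at 0, 10 and 30 min, 1 h and 8 h and on the self-self array (diamonds, right), 1 array per point, with the central 99% of all self-self values in grey. The probes of MCL1, BBC3, TNFRSF10B, PMAIP1 and BIRC2 lie above the grey band at every harvest and draw together at 1 h, while BAX lies inside the band or just below it.

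When the self-self array entered the fit as the level, none of the 6 positive probes passed (limma adjusted p from 0.167 to 0.187). A single self-self array is then assumed to vary like the harvests, and of all probes 2 were called negative and 0 positive. In the fit against 0, 8676 probes had an unadjusted p under 0.05. The 6 positive probes stayed past the threshold when any 1 harvest array was left out, with limma adjusted p-values from 3.61e-08 to 0.00648.

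Each harvest was also set against the noise of labelling and hybridisation, taken as the central 99% of the self-self array, from -0.32 to 0.47. This is a description without a test. At every harvest the same 6 probes lay above that range. Of all 13091 probes measured on 6 arrays, 18.6%, 33.2%, 33.3%, 19.2% and 33.5% did so in harvest order, and 10.5% lay above it on all 5 arrays. BAX lay below the range at 10 min and 8 h and inside it on the other 3 arrays. The shares of all probes below it were 20.8%, 34.1%, 29.9%, 26.4% and 29.8%, with 13.1% below on all 5 arrays. With arrays scaled to equal spread, 3, 0, 2, 0 and 1 of the 7 probes lay above at the 5 harvests. That scaling also stretched the self-self array, with its robust SD of 0.12, to the spread of the harvest arrays. The range was thus widened by construction, and these counts do not measure labelling noise.

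The arrays differ in spread, so the rank of each probe within its own array shows more plainly how the genes compare. MCL1 was above 99.2%, 99.3%, 99.02%, 97.6% and 99.7% of probes at the 5 harvests in order, against 88.8% on the self-self array. Its low log2 ratio at 1 h was thus still among the highest of that array. BBC3 was above 98.96%, 98.3%, 99.3%, 93.6% and 96.2% of probes, against 12.6% on the self-self array. TNFRSF10B was above 98.7%, 97.8%, 97.7%, 93.8% and 94.4%. For both genes the ranks at 1 h and 8 h were the lowest of the course.

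PMAIP1 ranked above 95.8%, 92.6%, 93.8%, 90.2% and 89.7% of probes, against 50.9% on the self-self array. The BIRC2 probes ranked between 87.5% and 94.9% at the harvests, against 60.1% and 72.5% on the self-self array. BAX was above 24.8%, 31.7%, 44.2%, 27.3% and 26.5% of probes. Among these genes BAX alone stood below the middle of the arrays at every harvest.

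**Figure D2:**
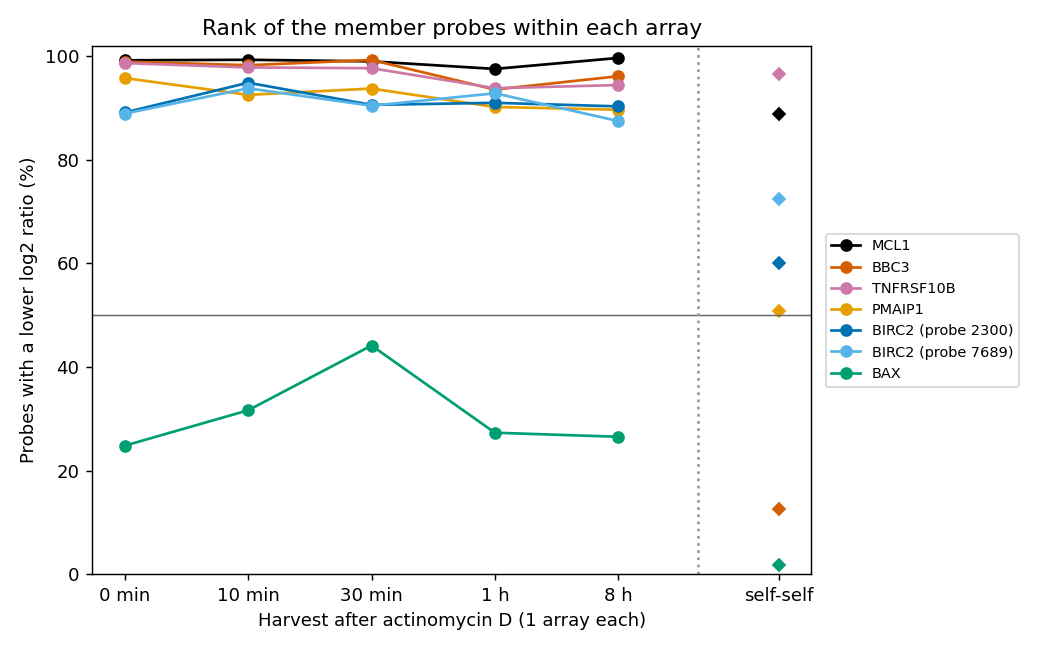
Percentage of the 13091 probes with a lower log2 ratio (vertical axis) for each of the 7 probes on each harvest array and on the self-self array (diamonds, right). MCL1 stays above 97.6% of probes or more at all 5 harvests, and BAX stays below 50%.

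Expressed in robust SDs of each array from that array's median, MCL1 stood at 5.71, 3.45, 3.74, 2.02 and 5.45 at the 5 harvests, against 1.32 on the self-self array. BBC3 stood at 5.12, 2.72, 4.13, 1.46 and 2.57, and TNFRSF10B at 4.60, 2.55, 2.71, 1.48 and 2.16. For all 3 genes the 0 min array gave the largest distance on this scale, although it did not give the largest log2 ratio. PMAIP1 likewise was at 2.73 at 0 min and between 1.20 and 1.68 later. The BIRC2 probes moved little, between 1.25 and 1.68.

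The slope asks whether the log2 ratio moved with time after actinomycin D, in units of log2 per unit of log2(1 + min / 10). No probe of the 13151 passed (0%, limma), the smallest adjusted p being 0.0669, and 1870 had an unadjusted p under 0.05 (14.2%). With a trended and robust variance model in limma 978 passed, none of them a member. MCL1 had the largest slope of the 7 probes, 0.32 (SE 0.20, 95% interval -0.14 to 0.78, limma adjusted p = 0.555), above that of 97.5% of probes. With arrays scaled to equal spread the MCL1 slope was 0.0324 (limma adjusted p = 0.960). Without the 1 h array the MCL1 slope was 0.40 and past the threshold (limma adjusted p = 0.0128), as were those of 574 probes in all. Without the 8 h array it was -0.45 (limma adjusted p = 1.000), so the sign of its slope rested on the last harvest.

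The slopes of the other 6 probes lay between -0.07 for TNFRSF10B and 0.08 for a BIRC2 probe, with limma adjusted p-values from 0.786 to 0.968. With arrays scaled to equal spread the slope of BBC3 was -0.263 and that of TNFRSF10B -0.247, and without the 8 h array they were -0.348 and -0.391, none of them past the threshold. From the first to the last harvest, the log2 ratio of MCL1 differed by 2.30 (8 h minus 0 min), more than for 98.8% of probes. For BIRC2 this difference was 0.81 and 0.59, for PMAIP1 0.21, for BBC3 0.07, for TNFRSF10B -0.06 and for BAX -0.16. The spread of the 8 h array was wider than that of the 0 min array, with robust SDs of 0.87 and 0.44. Measured in those SDs from the median, MCL1 stood at 5.45 at 8 h and 5.71 at 0 min. On that scale BBC3 stood at 2.57 and 5.12, TNFRSF10B at 2.16 and 4.60, and PMAIP1 at 1.52 and 2.73. The BIRC2 probes stood at 1.60 and 1.51 (probe 2300) and 1.33 and 1.49 (probe 7689), and BAX at -0.65 and -0.69. These differences have 1 array on each side and no test.

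**Figure D3:**
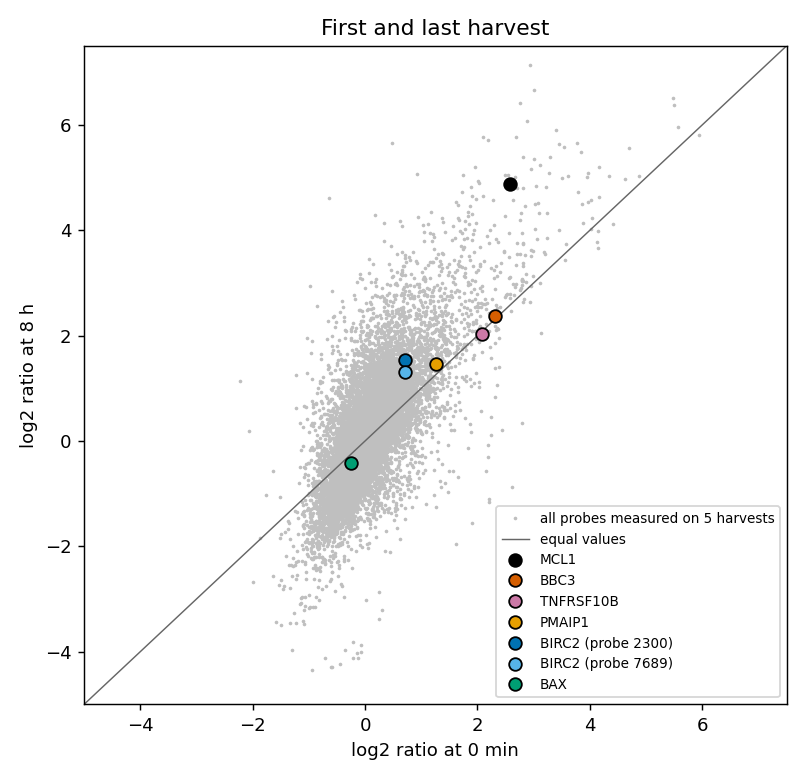
Log2 ratio at 8 h (vertical axis) against that at 0 min (horizontal axis) for 13151 probes in grey and the 7 probes in colour, with the line of equal values. MCL1 lies 2.30 above the line, BBC3 and TNFRSF10B lie on it within 0.07, and BAX sits among the lower values, above 24.8% of probes at 0 min and 26.5% at 8 h. The axes are not scaled for the wider spread of the 8 h array.

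In the order of their means over the harvests the genes were MCL1, BBC3, TNFRSF10B, PMAIP1, BIRC2 with its probes averaged, and BAX. The differences of neighbours on the same array were compared with an exact two-sided sign-flip permutation test over 5 arrays, which cannot give a p below 0.0625. MCL1 exceeded BBC3 on 4 of 5 arrays, by 0.68 on average (SD 1.07, 95% interval -0.64 to 2.01, exact p = 0.25, 0.312 adjusted over 5 pairs). BBC3 exceeded TNFRSF10B on 4 of 5 arrays, by 0.37 (SD 0.44, 95% interval -0.18 to 0.91, exact p = 0.125, adjusted 0.208). PMAIP1 exceeded BIRC2 on 3 of 5, by 0.12 (SD 0.30, 95% interval -0.24 to 0.49, exact p = 0.438, adjusted 0.438). These 3 pairs did not differ beyond their spread.

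At the remaining steps the genes separated on every array. TNFRSF10B exceeded PMAIP1 on 5 of 5 arrays, by 0.68 (SD 0.35, 95% interval 0.25 to 1.12). BIRC2 exceeded BAX on 5 of 5, by 1.38 (SD 0.45, 95% interval 0.82 to 1.95). Both reached the smallest p the test allows (exact p = 0.0625, adjusted 0.156).

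The genes nearest to each member were found by the Euclidean distance between 5 harvest log2 ratios, over 8719 other genes. Nearest to MCL1 was BDKRB1, the bradykinin B1 receptor, at a distance of 0.52, with 2.63, 2.91, 3.43, 1.29 and 4.93 at the 5 harvests. KLF6, a zinc finger transcription factor, followed at 0.71 and RSRC2 at 0.92, where the median gene lay at 6.88. Among the members that median was larger for genes further from 0, so it is no scale for how alike 2 genes are. The nearest to BBC3 were TICAM1, an adaptor of Toll-like receptors, at 0.46, ZBTB5 at 0.61 and TKTL1 at 0.75. For TNFRSF10B they were the glucose transporter SLC2A3 at 0.33, KAZN at 0.39 and RHOBTB1 at 0.40.

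PMAIP1 was nearest to CTNNAL1 at 0.13, TNF at 0.15 and SLC9A8 at 0.25. The TNF value there averages 2 probes that disagree, at means of 2.68 and -0.12, so this likeness rests on the averaging. BIRC2 was nearest to the DNA polymerase REV1 at 0.24, ZFPM2 at 0.26 and the transcription factor FOXO1 at 0.28. BAX was nearest to LDHC at 0.12, the methionine tRNA synthetase MARS1 at 0.13 and ATP5IF1 at 0.18. Genes near 0 have many near neighbours, as the median distance from BAX was 1.43.

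The other genes of the apoptosis machinery were read from a list of 60, of which 42 have a probe of their own and 39 were measured at all 5 harvests. With probes averaged per gene, 16 of the 39 were called positive and 12 negative, and 11 did not pass. Over all 8748 genes 37.0% were positive and 25.3% negative, and for the list these shares were 41.0% and 30.8%. The list's median mean log2 ratio was 0.14, as was that of all genes (0.14, or 0.04 with each array centred). The list as a whole was thus near the background. With arrays centred on their medians 12 were positive and 12 negative. BCL2A1, CASP8, CASP9 and BCL2L13 then missed the threshold. They also missed it with single harvests left out, CASP9 without any 1 of them, BCL2A1 and BCL2L13 without any 1 but the 0 min array, and CASP8 without the 10 min, the 30 min or the 8 h array. Without the 30 min array 10 genes of the list were positive, as was the case without the 8 h array, where BCL2 also missed it (limma adjusted p = 0.0604).

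Among the survival members of the BCL2 family, BCL2 itself was at a mean log2 ratio of 0.75 (SE 0.21, limma adjusted p = 0.0141) and BCL2A1 at 0.33 (limma adjusted p = 0.0335), both positive. The BCL2A1 value averages 2 probes with means of 0.42 (limma adjusted p = 0.0429) and 0.24 (limma adjusted p = 0.0936), of which the second did not pass. BCL2L2, which encodes BCL-W, was negative at -0.68 (SE 0.12, limma adjusted p = 0.00169). None of the 3 was as large in size as MCL1. BOK, the only gene measured among the pro-apoptotic effectors of the list, was positive at 0.73 (SE 0.14, limma adjusted p = 0.00257). Of 6 further BH3-only and related genes, HRK was positive at 0.52 (SE 0.16) but not without the 10 min or the 30 min array, 2 were negative, and BIK, BCL2L11 and BAD did not pass, at 0.17, -0.11 and -0.17. The negative pair was BNIP3 at -1.37 (SE 0.15) and BNIP3L at -1.10 (SE 0.13), known for their part in mitophagy and hypoxia. BNIP3 had -0.62, -1.62, -1.31, -1.11 and -2.18 at the 5 harvests, against -0.10 on the self-self array, so the BH3-related genes stood on both sides of 0.

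In the inhibitor of apoptosis family of BIRC2, BIRC6, a giant ubiquitin-conjugating enzyme, was positive at 0.70 (SE 0.12, limma adjusted p = 0.00161). BIRC5, which encodes survivin and acts in mitosis as well, was negative at -1.02 (SE 0.16, limma adjusted p = 0.00124). XAF1, an antagonist of the family, was at 0.32 and did not pass (limma adjusted p = 0.254), although it did without the 1 h array (0.53, limma adjusted p = 0.0375) and with the trended robust variance model. Among 6 measured death receptors and decoys, TNFRSF10A, the sister receptor of TNFRSF10B, was positive at 0.81 (SE 0.12) and FAS at 0.80 (SE 0.13). TNFRSF1A was negative at -0.66 (SE 0.13), and TNFRSF21, TNFRSF25 and TNFRSF10C did not pass, at 0.14, -0.08 and -0.10. TNFRSF10A had 0.69, 0.99, 1.08, 0.68 and 0.60 at the 5 harvests, against 0.07 on the self-self array, and lay below TNFRSF10B on each. The ligand of both, TNFSF10 (TRAIL), was positive at 0.51 (SE 0.14, limma adjusted p = 0.0136), which missed the threshold without the 30 min or the 8 h array, and TNF averaged 1.28 over its disagreeing probes.

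Downstream of the receptors, TRAF1, an adaptor that binds BIRC2, had the largest mean of the list, 3.68 (SE 0.47, limma adjusted p = 0.000569). Its log2 ratios were 4.14, 4.56, 4.97, 1.09 and 3.66, against -0.03 on the self-self array. DAXX was positive at 0.89 (SE 0.15). FADD, the adaptor that links death receptors to caspases, was negative at -0.59 (SE 0.13), and TRADD, at -0.03, did not pass. Of 4 caspases, CASP6 was negative at -0.90 (SE 0.13, limma adjusted p = 0.000969). CASP8, the initiator caspase, averaged 0.35 (SE 0.12, limma adjusted p = 0.0391) over 2 probes with means of 0.66 and 0.03, of which the second did not pass. CASP9, the caspase of the apoptosome, was at 0.28 (limma adjusted p = 0.0435), and CASP10, at -0.00112, did not pass.

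Among 5 factors of the apoptosome and of DNA fragmentation, DFFA, the inhibitor of the caspase-activated nuclease, was positive at 1.17 (SE 0.20, limma adjusted p = 0.00179). APAF1, the scaffold of the apoptosome, was negative at -0.62 (SE 0.11, limma adjusted p = 0.00219), as was CYCS, cytochrome c, at -0.56 (SE 0.12) over 3 probes. AIFM1 and DFFB did not pass, at 0.16 and -0.20. FBXW7, a ubiquitin ligase subunit that can target MCL1 protein, was positive at 1.23 (SE 0.14, limma adjusted p = 0.000498). Of 4 modulators that bind or resemble BCL2 proteins, 3 were negative and 1 positive. TMBIM6, a membrane protein of the endoplasmic reticulum, was lowest at -2.72 (SE 0.23), followed by the co-chaperone BAG1 at -1.09 (SE 0.16) and MOAP1 at -0.79 (SE 0.13). BCL2L13 was positive at 0.30 (SE 0.11).

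**Figure D4:**
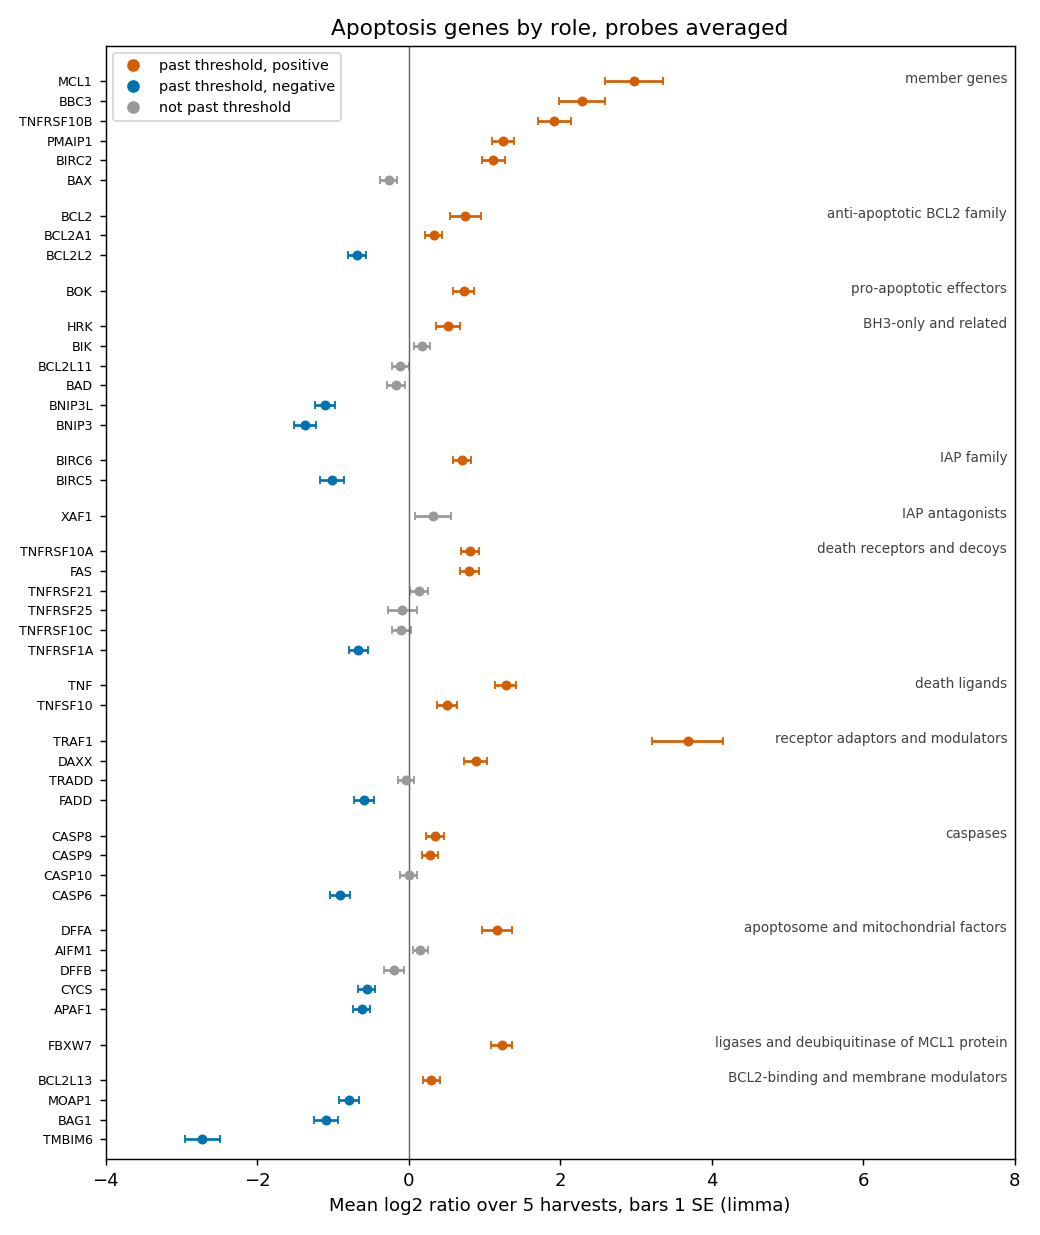
Mean log2 ratio over 5 harvests (horizontal axis, bars 1 SE from limma, probes averaged per gene) for 6 member genes and 39 other apoptosis genes grouped by role. Filled colours mark genes past the threshold on the positive side (orange) or the negative side (blue), and within most roles with several genes both colours occur.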

How the data were processed

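The members and gene lists were chosen with earlier results of these data known. Per the labels, the authors averaged background-subtracted spot intensities, divided one channel by the other, normalised ratios within each slide on housekeeping genes and discarded ratios of low quality. The deposited table holds log2 ratios for 14080 probes. The base follows from the numbers themselves: raised as powers of 2 and multiplied by 10000, 99.5% to 100% of an array's entries are whole within 0.05. In every array 1 value recurs at between 333 and 534 probes, and these entries were treated as not measured. No quality column, scanner file or probe sequence was used here. The arrays' number limits the precision.

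Gene symbols come from a platform annotation of 2007. Of 14080 probes, 11304 have 1 symbol, 446 several and 2330 none, and 11282 single-gene probes matched the RefSeq gene table by gene ID. Probes of a gene were averaged for lists and likeness. With limma 3.58.1 in R 4.3.3, the log2 ratios of the 5 harvests were modelled per probe by their mean and a linear term in log2(1 + min / 10), centred. This leaves 3 residual degrees of freedom. Variances were moderated by empirical Bayes, and p-values were adjusted by Benjamini-Hochberg over all probes or genes (threshold 0.05, two-sided tests). The fit was also run on simulated data with independent normal errors and a constant effect. That simulation does not test whether the harvests of 1 course can stand as replicates. All probes of the 6 genes are named, with up to 2 genes per role of the list, those of largest mean in size among the ones past the threshold (or 1 where none passed), and the 3 nearest genes per member. The remaining measured genes of the list were named after their values were seen. TNFRSF10D, CFLAR and HUWE1 had a probe with an entry treated as not measured.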

Additional observations from a re-analysis of the deposited data

How the results depend on the processing

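The counts of positive and negative probes, of members within the self-self range and of list genes were recomputed with repeated entries kept, arrays centred or scaled to equal spread, another variance model, no slope term and each harvest left out. The 84 alternative values of the members' means kept their sign, and 6 of them, all against the self-self array, lost the threshold. In that fit 0 member probes were positive (6 in the fit against 0), as were 0 of all probes and 0 list genes, with 2 probes and 0 list genes negative. Centring, scaling and the trended robust variance model each made 1 member probe negative, BAX, at -0.36, -0.28 and -0.27, against -0.27 and 0 negative member probes as reported. For the slope, 1 probe passed with arrays centred, 27 with arrays scaled, 978 with the trended robust model and 438 on minutes. Leaving out 1 harvest gave 0 to 574 probes in all and 0 to 1 among the members, the highest in both cases without the 1 h array. With all 5 harvests kept, the slope of PMAIP1 changed sign (-0.00040 centred, -0.10 scaled and -0.0226 on harvest rank). That of BIRC2 probe 7689 did so too (-0.0138 scaled). Scaling gave slopes of 0.0324 for MCL1, -0.263 for BBC3 and -0.247 for TNFRSF10B. With 1 harvest left out, slopes ranged from -0.45 to 0.40 for MCL1, -0.348 to -0.0119 for BBC3, -0.391 to -0.0331 for TNFRSF10B, -0.156 to 0.0340 for PMAIP1, -0.0350 to 0.134 and -0.0124 to 0.0937 for BIRC2 and -0.0408 to 0.0325 for BAX. List genes on the positive side then ranged from 10 to 15. Above the self-self range, scaling left 3, 0, 2, 0 and 1 member probes at the 5 harvests, and a limit of 1 log2 unit left 1 at 1 h. Scaling widened the self-self range itself, as it also stretched that array. Below it, BAX was counted (1 probe) at 0 min and 1 h with the central 95% and at 1 h with arrays centred, and was not (0 probes) at 10 min and 8 h with scaling or the limit of 1 log2 unit. The cause of these shifts was not tested. Each ratio already pairs the 2 channels of 1 array. No pairing of replicates was possible because the labels give no replicate numbers and each group is 1 array.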
